A study of Arabidopsis thaliana with 14 samples.

Results

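The plastid-encoded genes are the genes that Arabidopsis carries on the circular genome of its plastids, outside the nucleus. They were taken as all gene identifiers that begin with ATCG in the expression tables, which gave 88 of 24350 genes. All 88 encode proteins, and 81 of them have values of their own, because the other 7 are second copies in the inverted repeat of the plastid genome and are listed with the same values as the first copies (rpl2, rpl23, ycf2, ycf15, ndhB, rps7 and rps12). RNA-Seq was carried out on 14 samples of dark-grown seedlings of the Columbia ecotype, with the hypocotyl given as the tissue. All seedlings were grown on 2 µM PPZ, an inhibitor of brassinosteroid (BR) biosynthesis. The 5 groups were wild-type Col-0 with no further treatment (mock, 3 labelled samples), Col-0 with 1 µM DPI (3 samples), the bzr1-1D mutant in mock (3 samples), bzr1-1D with 1 µM DPI (3 samples), and bzr1-1D with 1 µM DPI plus 0.3 mM H2O2 (2 samples). The labels give 6 days of growth in the dark. In bzr1-1D, BZR1, a transcription factor of the BR pathway, is active through a dominant gain-of-function mutation, and this is the single mutant line tested. DPI inhibits the NADPH oxidases that produce H2O2, and it is not specific to them.

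The data are the authors' mean of each group, in a unit taken here as FPKM, which is a fragment count scaled to gene length and library size. No value per sample was analysed here, so the depth of the samples is unknown and no difference below could be set against the spread between replicates or tested. Ratios are therefore descriptions of group means. A gene was counted as higher or lower when the means differed by at least 1.5-fold, among genes whose mean over both groups reached 1 FPKM. Judged by its decimals, each mean was taken over 3 libraries for both Col-0 groups and for bzr1-1D with DPI alone. It was taken over 2 libraries for the H2O2 group and also for bzr1-1D mock, although 3 samples of bzr1-1D mock are labelled.

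Plastids keep genes for part of the photosynthetic machinery, for part of their own ribosome and for a bacterial-type RNA polymerase. In higher plants this plastid-encoded polymerase transcribes many photosynthesis genes with the help of nuclear-encoded sigma factors and polymerase-associated proteins, while a phage-type polymerase imported from the cytosol transcribes housekeeping genes such as rpoB, accD, clpP1 and ycf1. Seedlings grown in the dark hold etioplasts, which store the chlorophyll precursor together with the PORA and PORB proteins and develop into chloroplasts in the light. Plastid messenger RNAs carry no stable poly(A) tail. How mRNA was selected for the libraries is not given in the sources used here, so the values say how the groups compare and not how much RNA the plastids hold. In whole-tissue RNA, fewer plastids or plastid-rich cells and less RNA per plastid cannot be told apart.

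Several of the genes with the most extreme ratios are short. Their coding sequences are shown because an FPKM value of so short a gene rests on few possible fragment positions, and because psbK, psbI, petN and petG lead several comparisons below, psbM is the most abundant plastid gene and rpl32 went the other way. They were read from the RefSeq chloroplast sequence of TAIR10.1 by the coordinates in the files, with the start and stop codons in capitals. On the plus strand lie psbK (positions 7017 to 7202), psbI (7583 to 7693), petN (28089 to 28178), petG (65998 to 66111) and rpl32 (113449 to 113607), and on the minus strand lies psbM (28707 to 28811). Each is a single coding exon.
psbK: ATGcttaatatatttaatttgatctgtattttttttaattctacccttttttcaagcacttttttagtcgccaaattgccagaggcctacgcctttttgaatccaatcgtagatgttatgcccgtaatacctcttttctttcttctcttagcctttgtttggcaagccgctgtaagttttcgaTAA
psbI: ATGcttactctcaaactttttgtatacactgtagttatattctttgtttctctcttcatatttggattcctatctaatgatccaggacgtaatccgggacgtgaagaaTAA
petN: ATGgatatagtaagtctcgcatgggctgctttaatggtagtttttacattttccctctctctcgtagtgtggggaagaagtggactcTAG
psbM: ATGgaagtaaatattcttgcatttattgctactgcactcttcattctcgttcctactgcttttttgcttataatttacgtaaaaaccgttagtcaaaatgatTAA
petG: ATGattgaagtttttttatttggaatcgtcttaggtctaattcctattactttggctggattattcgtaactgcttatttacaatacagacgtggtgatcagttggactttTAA
rpl32: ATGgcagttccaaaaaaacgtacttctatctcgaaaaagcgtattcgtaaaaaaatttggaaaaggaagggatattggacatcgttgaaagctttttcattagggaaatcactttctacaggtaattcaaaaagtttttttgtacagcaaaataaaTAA

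The coding sequences of these 6 genes measure 186 bases (psbK), 111 bases (psbI), 90 bases (petN), 105 bases (psbM), 114 bases (petG) and 159 bases (rpl32). psbK, psbI and psbM encode small subunits of photosystem II, petN and petG encode small subunits of the cytochrome b6f complex, and rpl32 encodes a protein of the large ribosomal subunit. Of the 88 members, 31 are shorter than 300 bases. In the mock comparison of the genotypes, the median log2 ratio was -1.36 over the 28 tested genes below 300 bases and -1.36 over the 52 longer ones, with second repeat copies left out. For DPI against mock in bzr1-1D these medians were 0.77 and 0.96, and for H2O2 added to DPI they were -0.28 and -0.12.

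The 250 bases before each start codon were also searched, on the strand of the gene only, for a bacterial-type core promoter written as TTGAC, 18 to 20 bases of any kind, and TANNNT. Of the 79 windows searched, those of psbA and petN held it (2.53%). The pieces are shown with the matched letters in capitals, and the first matched base lies 115 bases before the start codon of psbA (positions 1530 to 1559, minus strand) and 88 bases before that of petN (28001 to 28030, plus strand). A match of letters describes the sequence and is not a mapped promoter.
psbA: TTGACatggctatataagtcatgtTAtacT
petN: TTGACtctgcaccagtgatttcacTAttaT

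In all 5 groups the median of the plastid genes lay above the median of all genes. In Col-0 mock the median over the 88 members was 42.6 FPKM, against 5.45 FPKM over all genes listed. In bzr1-1D mock the median over all genes was 5.94 FPKM, and some members lay below it, such as rpoB at 3.84 FPKM. The median of the members was 51.5 FPKM in Col-0 DPI. In bzr1-1D it was 16.4 FPKM in mock, 30.4 FPKM with DPI and 27.0 FPKM with both DPI and H2O2, where 87 members are listed. The bzr1-1D mock group was thus the lowest by this median, and both Col-0 groups were the highest. For 66 of the 87 members with a mean in all 5 groups, bzr1-1D mock held the lowest mean, and for 20 the lowest mean was that of bzr1-1D DPI plus H2O2. The highest mean lay in a Col-0 group for 76 of the 87. These counts were not made over all genes, so whether they are particular to plastid genes was not tested.

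**Figure D1:**
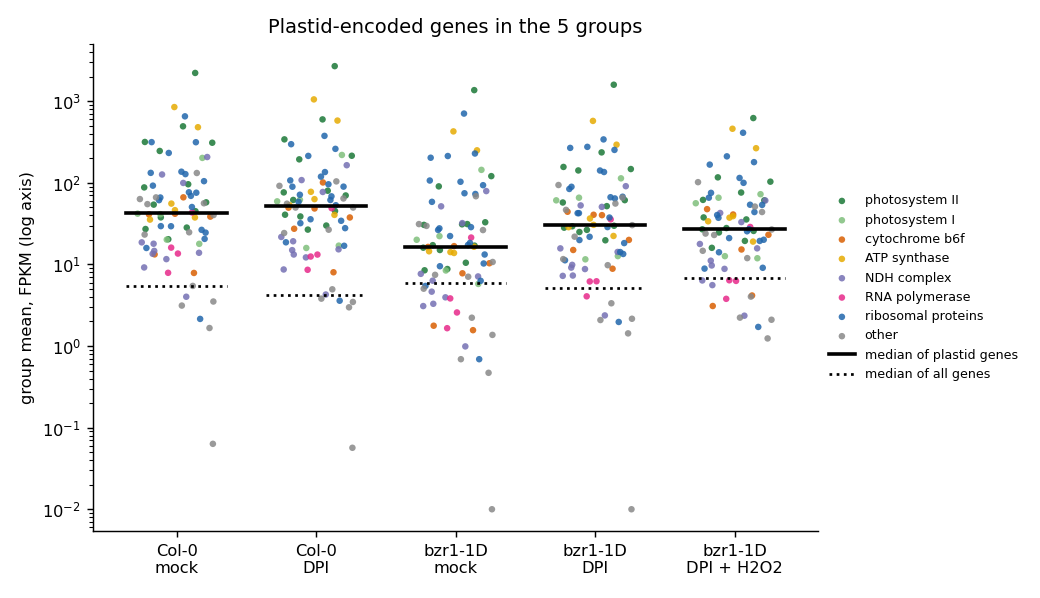
Group means in FPKM (vertical log axis) of the plastid-encoded genes in the 5 groups, with 1 point per gene, second repeat copies left out, colours for the role of the gene, solid bars for the median over all listed members and dotted bars for the median of all genes. The solid bar is lowest in bzr1-1D mock (16.4 FPKM) and highest in Col-0 DPI (51.5 FPKM), and psbM is the top point of every group.

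The order of levels was similar at the top of each group. psbM stood first in all 5 groups, with 2222 FPKM in mock and 2692 FPKM with DPI in Col-0, and 1368 FPKM in mock, 1594 FPKM with DPI and 622 FPKM with both DPI and H2O2 in bzr1-1D. It alone made up 21.2% of the summed plastid FPKM in Col-0 mock against 12.2% in bzr1-1D DPI plus H2O2. In Col-0 mock it was followed by atpE (849 FPKM), rpl32 (653 FPKM), psbK (493 FPKM), atpB (481 FPKM) and psbI (317 FPKM). atpE and atpB, which share 4 bases of sequence, encode the epsilon and beta subunits of ATP synthase. In bzr1-1D mock, psbK and psbI were no longer among the first 6, and rpl32 (706 FPKM) stood second. At the other end lay the truncated second copy of ycf1 at the edge of the repeat, at 0.063 FPKM in Col-0 mock. It shares 39 bases with ndhF on the opposite strand, reached 1 FPKM in no group and is therefore the member that no comparison tests.

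As a share of the summed FPKM, plastid genes made up 1.50% in mock and 1.48% with DPI in Col-0, and 0.828% in mock, 1.02% with DPI and 0.724% with DPI plus H2O2 in bzr1-1D. The share in bzr1-1D mock was 0.552 times that in Col-0 mock. Weighted by gene length, which comes closer to a share of fragments, the values were 0.533%, 0.541%, 0.269%, 0.380% and 0.304% in the same order. By this second measure the lowest group was bzr1-1D mock and not bzr1-1D DPI plus H2O2. Without psbM, the share of summed FPKM was 0.633% in bzr1-1D mock against 0.636% with DPI plus H2O2. Mitochondrion-encoded genes made up 0.0386%, 0.0649%, 0.0322%, 0.0732% and 0.0688% of the summed FPKM in the 5 groups.

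The first comparison asks how the plastid transcripts differ between bzr1-1D and Col-0 when BR synthesis is blocked. In mock, plastid genes were lower in bzr1-1D. Of the 87 members tested, 74 were at least 1.5-fold lower and 0 were at least 1.5-fold higher, against a background of 15.4% lower and 26.0% higher among all 18346 genes tested. The median log2 ratio of the members was -1.36, which is a 2.56-fold lower mean, and that of all genes was 0.14. Set against the median gene, the members lay 1.50 log2 units lower, and all 87 lay below it. rps16, ycf2, ycf15 and ndhF were under 1 FPKM in bzr1-1D mock and entered the count through their Col-0 mean. They could therefore not count as higher. Of 42 mitochondrion-encoded genes, 15 were lower and 2 were higher, with a median of -0.45.

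**Figure D2:**
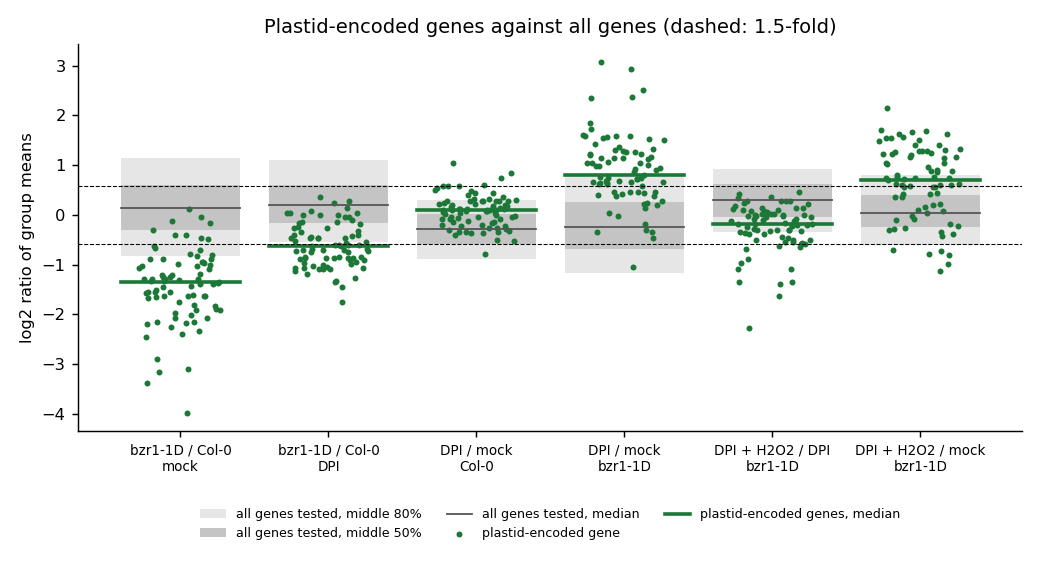
Log2 ratio of group means (vertical axis) in the 6 comparisons, with green points for plastid-encoded genes (second repeat copies left out), green bars for their median over all tested members, grey boxes for the middle 50% and 80% of all genes tested and dashed lines at 1.5-fold. The green bar lies at -1.36 for bzr1-1D against Col-0 in mock, below the grey boxes, and at 0.81 for DPI against mock in bzr1-1D, above the box of the middle 50%.

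All 14 photosystem II genes were lower, with a median log2 ratio of -1.44, and psbK and psbI had the lowest ratios of all members. psbK was 493 FPKM in Col-0 mock against 31.0 FPKM in bzr1-1D mock, a 15.9-fold lower mean. Its neighbour psbI, in the same transcription unit, was 317 FPKM and 30.5 FPKM, a 10.4-fold lower mean. psbA, which encodes the D1 reaction centre protein, was 87.9 FPKM in Col-0 mock against 16.0 FPKM in bzr1-1D mock (log2 ratio -2.45). psbD, which encodes the D2 protein, was 310 FPKM and 121 FPKM (log2 ratio -1.36). The smallest difference of the complex was that of psbM, with a log2 ratio of -0.70.

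The other photosynthesis genes were lower too. All 6 genes of the cytochrome b6f complex were lower, with a median log2 ratio of -2.11. petN was 66.4 FPKM in Col-0 mock against 7.79 FPKM in bzr1-1D mock, and petB, the cytochrome b6 gene, was 41.8 FPKM and 16.8 FPKM. Of the 5 photosystem I genes 4 were lower, including psaA (41.9 FPKM and 20.1 FPKM) and psaB (41.3 FPKM and 22.2 FPKM), which encode the reaction centre proteins. The exception was psaJ, a small subunit, at 202 FPKM and 144 FPKM (log2 ratio -0.49). All 6 ATP synthase genes were lower, from atpA (log2 ratio -1.97) to atpB (-0.94). All 12 identifiers of the NDH complex, which cycles electrons around photosystem I, were lower, and ndhF was 4.02 FPKM in Col-0 mock against 0.99 FPKM in bzr1-1D mock. rbcL, the large subunit of Rubisco, was 63.3 FPKM and 31.2 FPKM (log2 ratio -1.02).

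Genes for plastid gene expression were divided. All 4 subunits of the plastid-encoded RNA polymerase were lower, with a median log2 ratio of -2.16. rpoB, its beta subunit, was 16.1 FPKM in Col-0 mock against 3.84 FPKM in bzr1-1D mock. matK, which encodes a maturase for the splicing of plastid introns, was 66.3 FPKM and 7.46 FPKM, an 8.89-fold lower mean. In the ribosome, 4 of 11 large-subunit identifiers and 10 of 15 small-subunit identifiers were lower, with medians of -0.46 and -0.82. Within 1.5-fold were rpl2, rpl14, rpl16, rpl23, rpl32, rps7 and rps12, with both repeat copies where there are 2 and all 3 identifiers of rps12. Together with psaJ these make up the 13 identifiers that did not pass the fold. rpl32 was 653 FPKM in Col-0 mock against 706 FPKM in bzr1-1D mock, and its log2 ratio of 0.11 was the highest of the 87.

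Genes listed as templates of the imported phage-type polymerase were lower as well. All 8 tested identifiers of this list passed the fold. They are rpoB, rpoC1, rpoC2, accD, clpP1, the long ycf1 and both copies of ycf2, which are listed with the same values. Both ycf2 identifiers were 0.69 FPKM in bzr1-1D mock, entered through their Col-0 mean and could not count as higher. The log2 ratios of the 8 lay between -2.40 (rpoC1) and -0.89 (ycf1). accD, a subunit of acetyl-CoA carboxylase, was 5.46 FPKM in Col-0 mock against 2.22 FPKM in bzr1-1D mock. clpP1, a subunit of the Clp protease, was 132 FPKM and 68.5 FPKM. ycf1, which encodes a component of the protein import machinery of the envelope, was 54.9 FPKM and 29.7 FPKM (log2 ratio -0.89). The list is from textbook knowledge, and many of its genes also have promoters for the other polymerase.

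Position on the genome went with the size of the difference for most genes named in a stretch picked after its values were seen. The transcription unit that runs from rpl23 to rpoA holds ribosomal protein genes and a polymerase gene, among them, in this order, rpl23, rpl2, rps19, rpl22, rps3, rpl16, rpl14, rpl36 and rpoA. The log2 ratio was -0.05 for rpl23 at its start, -0.46 for rpl2 and -0.64 for rps19, and it was -0.89 for rpl36 and -1.02 for rpoA at its end. rpl16 (-0.13) and rpl14 (-0.41) broke this order. rpl23 and rpl2 are listed with the same values as their second copies, which lie outside this unit. In the unit petL, petG, psaJ, rpl33 and rps18 neighbours differed, with a log2 ratio of -2.90 for petG and -0.49 for psaJ. Neighbouring and overlapping genes may share reads, since the strand setting of the counting is not given in the sources used here. psbD and psbC share 53 bases, rps3 and rpl22 share 16 bases, and psbN lies on the opposite strand between psbT and psbH.

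**Figure D3:**
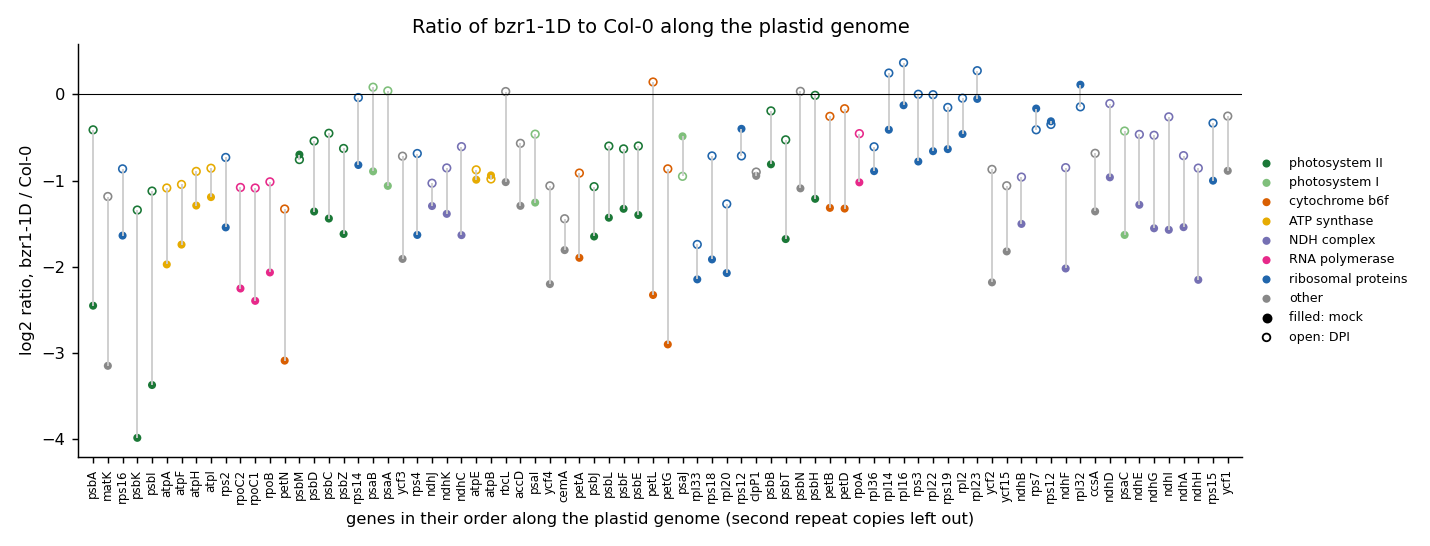
Log2 ratio of bzr1-1D to Col-0 (vertical axis) for plastid-encoded genes in their order along the plastid genome (horizontal axis), filled for mock and open for DPI, with colours for the role of the gene and grey lines joining both values of a gene. Filled points reach -3.99 at psbK, and open points lie between -1.74 at rpl33 and 0.37 at rpl16.

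The same genotypes were then compared with DPI in both. Under DPI the members were again lower in bzr1-1D, by a smaller factor. Of 87 members, 48 were at least 1.5-fold lower and 0 were higher, against 8.94% lower and 26.1% higher among 17694 genes. Their median log2 ratio was -0.63 (1.55-fold lower), and that of all genes was 0.20, so that the members lay 0.82 log2 units below the median gene. Of the 74 members lower in mock, 46 were also lower under DPI and 28 were not. The log2 ratio was smaller in size under DPI than in mock for 75 of the 87. The 74 were picked by their ratio in mock, and neither this split nor this count was made over all genes. Whether they are particular to plastid genes was therefore not tested. Among 58 mitochondrion-encoded genes, 4 were lower and 13 were higher.

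Units differed in how far the genotypes lay apart under DPI. In the unit of psaA, psaB and rps14 the log2 ratios were between -0.04 and 0.08, and psaA was 59.3 FPKM in Col-0 DPI against 61.0 FPKM in bzr1-1D DPI. rbcL was 91.9 FPKM and 94.1 FPKM. None of the 5 genes of the psbB, psbT, psbH, petB and petD unit passed the fold, and petB was 48.5 FPKM and 40.6 FPKM. By contrast all 6 ATP synthase genes were lower, with log2 ratios between -1.09 and -0.86, and atpB was 580 FPKM and 293 FPKM. rpoB, rpoC1 and rpoC2 lay between -1.09 and -1.02.

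The lowest ratios under DPI were those of rpl33, cemA and psbK. rpl33, a large-subunit ribosomal protein gene, was 96.0 FPKM in Col-0 DPI against 28.7 FPKM in bzr1-1D DPI, a 3.35-fold lower mean. cemA, which encodes an inner envelope protein, was 26.6 FPKM and 9.79 FPKM, and psbK was 599 FPKM and 236 FPKM. The highest were rpl16 (214 FPKM and 276 FPKM), rpl23 (53.2 FPKM and 64.4 FPKM) and rpl14 (119 FPKM and 142 FPKM), none of which passed the fold. psbA (76.4 FPKM and 57.4 FPKM, log2 ratio -0.41) and psbD (215 FPKM and 148 FPKM, log2 ratio -0.54) stayed within 1.5-fold as well. ndhF was lower, at 4.28 FPKM and 2.37 FPKM, and clpP1 was lower, at 104 FPKM and 55.8 FPKM. accD (4.96 FPKM and 3.34 FPKM) and ycf1 (55.5 FPKM and 46.6 FPKM) were within the fold.

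DPI was next set against mock within each genotype. In Col-0, few plastid genes passed the fold. Of 87 members, 7 were at least 1.5-fold higher and 1 was lower, against 4.01% higher and 25.2% lower among 17684 genes. The median log2 ratio was 0.10 over the members and -0.28 over all genes, which puts the members 0.38 above the median gene. Among 50 mitochondrion-encoded genes, 27 were higher and 2 were lower, with a median of 0.63.

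The 7 identifiers that were higher in Col-0 are petG, petN, psaB, atpH, rps16 and both copies of ycf15. petG was 13.3 FPKM in Col-0 mock against 27.4 FPKM in Col-0 DPI, a 2.06-fold higher mean. petN was 66.4 FPKM and 101 FPKM. psaB (41.3 FPKM and 62.1 FPKM) and atpH (35.4 FPKM and 53.2 FPKM) lay just past the fold, and ycf15 (1.66 FPKM and 2.98 FPKM) and rps16 (2.15 FPKM and 3.59 FPKM) were low. The single lower gene was rpl32, at 653 FPKM and 376 FPKM. psbD (310 FPKM and 215 FPKM) and rpl23 (75.7 FPKM and 53.2 FPKM) came next and did not pass. rbcL was 63.3 FPKM and 91.9 FPKM, a log2 ratio of 0.54.

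In bzr1-1D, plastid genes were higher with DPI. Of 85 members tested, 59 were at least 1.5-fold higher and 1 was lower, against 15.0% higher and 29.6% lower among 18286 genes. The median log2 ratio was 0.81 over the members and -0.24 over all genes, a distance of 1.05. Both copies of ycf15 lay below the minimum here. rps16, both copies of ycf2 and ndhF were under 1 FPKM in bzr1-1D mock and entered the count through their DPI mean. They could therefore count only as higher. Mitochondrion-encoded genes moved the same way, with 42 of 49 higher, 1 lower and a median of 1.40. This comparison and both comparisons of the genotypes share groups with each other, so their ratios are not independent. Of the 85 members in both DPI comparisons, 76 had a higher log2 ratio in bzr1-1D than in Col-0, and the median difference was 0.79. For each gene this difference equals its genotype log2 ratio under DPI minus that in mock. It therefore restates those comparisons and is not a separate result. Over 17242 genes the median difference was 0.09, and 57.6% of them had the higher ratio in bzr1-1D.

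**Figure D4:**
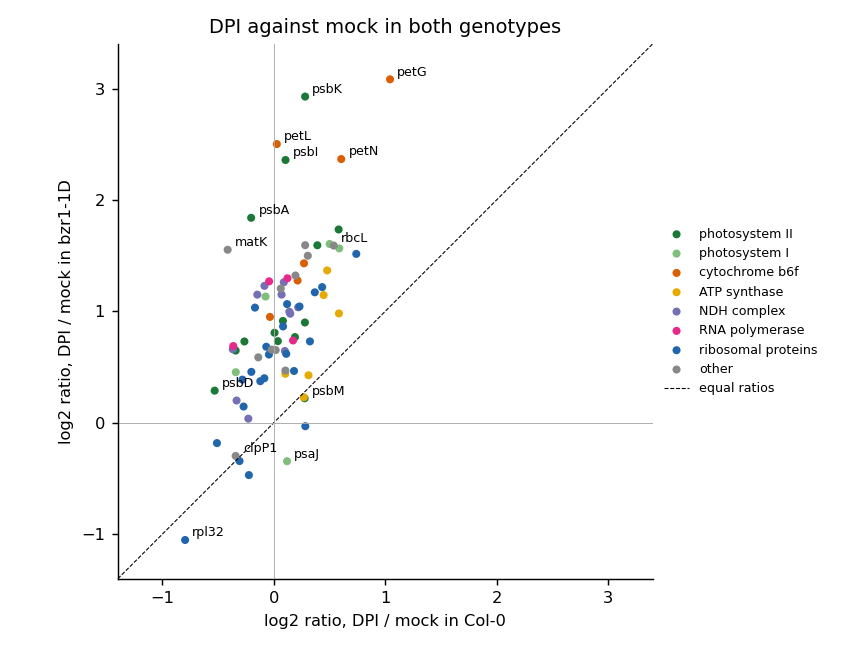
Log2 ratio of DPI to mock in Col-0 (horizontal axis) and in bzr1-1D (vertical axis), with 1 point per plastid-encoded gene, colours for its role and a dashed line where both ratios are equal. Most points lie above the line, petG, psbK, petL, petN and psbI lie highest, and rpl32 lies lowest at -0.80 and -1.05.

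Some genes with low ratios between the genotypes in mock had high DPI ratios in bzr1-1D, and these comparisons share the bzr1-1D mock group. psbK was 31.0 FPKM in bzr1-1D mock against 236 FPKM in bzr1-1D DPI, a 7.61-fold higher mean. petN was 7.79 FPKM and 40.2 FPKM (5.16-fold), and psbI was 30.5 FPKM and 157 FPKM (5.13-fold). psbA was 16.0 FPKM and 57.4 FPKM (log2 ratio 1.84). petG and petL had log2 ratios of 3.08 and 2.50, from means of 1.78 FPKM and 1.56 FPKM in bzr1-1D mock. matK, which had a log2 ratio of -3.15 between the genotypes in mock, was 7.46 FPKM and 21.9 FPKM (log2 ratio 1.55).

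By role, 12 of 14 photosystem II genes, all 6 cytochrome b6f genes, 3 of 5 photosystem I genes and 10 of 12 NDH identifiers were higher. psaA was 20.1 FPKM in bzr1-1D mock against 61.0 FPKM in bzr1-1D DPI, and psaB was 22.2 FPKM and 65.8 FPKM. rbcL was 31.2 FPKM and 94.1 FPKM, petB was 16.8 FPKM and 40.6 FPKM, and ndhF was 0.99 FPKM and 2.37 FPKM. Of the 6 ATP synthase genes 3 were higher, and atpB was 250 FPKM and 293 FPKM. psbD was 121 FPKM and 148 FPKM, also within the fold. All 4 polymerase genes were higher, among them rpoB (3.84 FPKM and 6.18 FPKM).

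Ribosomal protein genes were again less uniform, with 3 of 11 large-subunit and 8 of 15 small-subunit identifiers higher. rpl32 was the lower gene, at 706 FPKM in bzr1-1D mock against 341 FPKM in bzr1-1D DPI, a 2.07-fold lower mean. It was the lowest ratio of the members in both genotypes. rps7 (93.6 FPKM and 67.6 FPKM) and psaJ (144 FPKM and 114 FPKM) followed within the fold. accD (2.22 FPKM and 3.34 FPKM) and ycf1 (29.7 FPKM and 46.6 FPKM) were higher, and clpP1 (68.5 FPKM and 55.8 FPKM) was within the fold.

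The last comparisons concern H2O2 given together with DPI in bzr1-1D. Against DPI alone, most plastid genes were within the fold. Of 87 members, 13 were at least 1.5-fold lower and 0 were higher, against 4.18% lower and 27.2% higher among 18232 genes. When ratios were centred on the median gene, 36 members were lower, against 11.7% of all genes. The median log2 ratio was -0.19 over the members and 0.29 over all genes, so that the members lay 0.48 below the median gene, and 83 of 87 lay below it. Among 56 mitochondrion-encoded genes, 15 were lower and 5 were higher.

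The 13 lower genes are petG, psbK, petN, psbM, psbI, psbA, petL, ycf1, psbJ, rps19, psaJ, ndhC and psbN, and 10 of them are shorter than 300 bases. psbK was 236 FPKM in bzr1-1D DPI and 76.1 FPKM with H2O2, a 3.10-fold lower mean. petN was 40.2 FPKM and 15.3 FPKM (2.63-fold), psbM was 1594 FPKM and 622 FPKM (2.56-fold), and petG was 15.0 FPKM and 3.10 FPKM (log2 ratio -2.28). The 3 longer genes were psbA (57.4 FPKM and 27.0 FPKM), ycf1 (46.6 FPKM and 23.9 FPKM) and ndhC (50.8 FPKM and 33.0 FPKM). In contrast psaA (61.0 FPKM and 56.2 FPKM), psaB (65.8 FPKM and 65.7 FPKM), rbcL (94.1 FPKM and 102 FPKM), petB (40.6 FPKM and 40.9 FPKM), ndhF (2.37 FPKM and 2.36 FPKM) and rpoB (6.18 FPKM and 6.40 FPKM) had log2 ratios between -0.12 and 0.12. The highest ratios were those of rpl20 (14.2 FPKM and 19.4 FPKM), psbT (28.2 FPKM and 37.7 FPKM) and atpF (30.6 FPKM and 39.1 FPKM), none past the fold. psbD (148 FPKM and 103 FPKM), atpB (293 FPKM and 266 FPKM), clpP1 (55.8 FPKM and 51.2 FPKM) and accD (3.34 FPKM and 4.04 FPKM) were within it.

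Against bzr1-1D mock, the group with DPI plus H2O2 had 49 of 85 members higher and 9 lower, beside 16.5% higher and 10.5% lower among 18523 genes. As with DPI alone, rps16, both copies of ycf2 and ndhF entered this count through the mean of the treated group. The median log2 ratio was 0.70 over the members and 0.05 over all genes. Among 47 mitochondrion-encoded genes, 37 were higher and 1 was lower, with a median of 1.25. psbT was 8.48 FPKM in bzr1-1D mock against 37.7 FPKM with DPI plus H2O2 (4.44-fold), rbcL was 31.2 FPKM and 102 FPKM (3.26-fold), and psbH was 8.79 FPKM and 27.9 FPKM (3.18-fold). psbM was lower, at 1368 FPKM and 622 FPKM, as were psaJ (144 FPKM and 72.6 FPKM) and rps7 (93.6 FPKM and 53.7 FPKM). The other lower identifiers were rpl32, the second copy of rps7, and both repeat copies of rpl23 and of rps12. psbA (16.0 FPKM and 27.0 FPKM), psaA (20.1 FPKM and 56.2 FPKM), psaB (22.2 FPKM and 65.7 FPKM), petB, ndhF, rpoB and accD were higher. psbD, atpB, clpP1 and ycf1 were within the fold.

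Nuclear genes for plastid transcription were read beside the members. Of the 12 polymerase-associated proteins (PAP1 to PAP12), 11 were lower in bzr1-1D mock than in Col-0 mock and 0 were higher (all genes: 15.4% lower and 26.0% higher), with a median log2 ratio of -1.10. PAP9, the iron superoxide dismutase FSD2, was 14.9 FPKM in mock and 14.1 FPKM with DPI in Col-0, and 3.59 FPKM in mock, 13.5 FPKM with DPI and 13.6 FPKM with both DPI and H2O2 in bzr1-1D. PAP10, the thioredoxin TRXz, was 30.5, 39.4, 12.6, 50.1 and 24.3 FPKM in the same order. Under DPI, 0 of the 12 were lower in bzr1-1D and 2 were higher, beside 8.94% lower and 26.1% higher among all genes. With DPI in bzr1-1D, 10 of 12 were higher (15.0% of all genes), and with DPI in Col-0, 2 were lower (25.2% of all genes). H2O2 added to DPI left 10 within the fold, beside 12520 of all 18232 genes. The 2 lower were PAP4 (FSD3, 54.8 FPKM and 34.9 FPKM) and PAP10, beside 4.18% of all genes.

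Sigma factors and phage-type polymerases were less uniform. Of the 5 tested sigma factors, 3 were lower in bzr1-1D mock than in Col-0 mock, beside 15.4% of all genes. SIG1 went from 17.1 FPKM to 5.75 FPKM, SIG2 from 18.8 FPKM to 12.4 FPKM and SIG6 from 30.9 FPKM to 18.8 FPKM. Under DPI, 2 of the 5 were higher in bzr1-1D (SIG4 and SIG6) and 1 was lower (SIG1), beside 26.1% and 8.94% of all genes. SIG5 was below 1 FPKM in all 5 groups. With DPI in Col-0, 3 of the 5 were lower, beside 25.2% of all genes. With DPI in bzr1-1D 1 of the 5 was higher, beside 15.0% of all genes, and this was SIG2 (12.4 FPKM in mock and 20.2 FPKM with DPI). RPOTp, a phage-type polymerase of the plastid, was 12.1 FPKM in mock and 8.42 FPKM with DPI in Col-0. In bzr1-1D it was 4.26 FPKM in mock, 8.34 FPKM with DPI and 8.49 FPKM with both DPI and H2O2. RPOTmp and RPOTm were within the fold between bzr1-1D and Col-0 in mock (log2 ratios 0.42 and -0.17). Both were higher in bzr1-1D under DPI, beside 26.1% of all genes. RPOTmp was 0.97 FPKM in Col-0 DPI against 2.49 FPKM in bzr1-1D DPI. It entered this count through its bzr1-1D mean and could not count as lower.

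**Figure D5:**
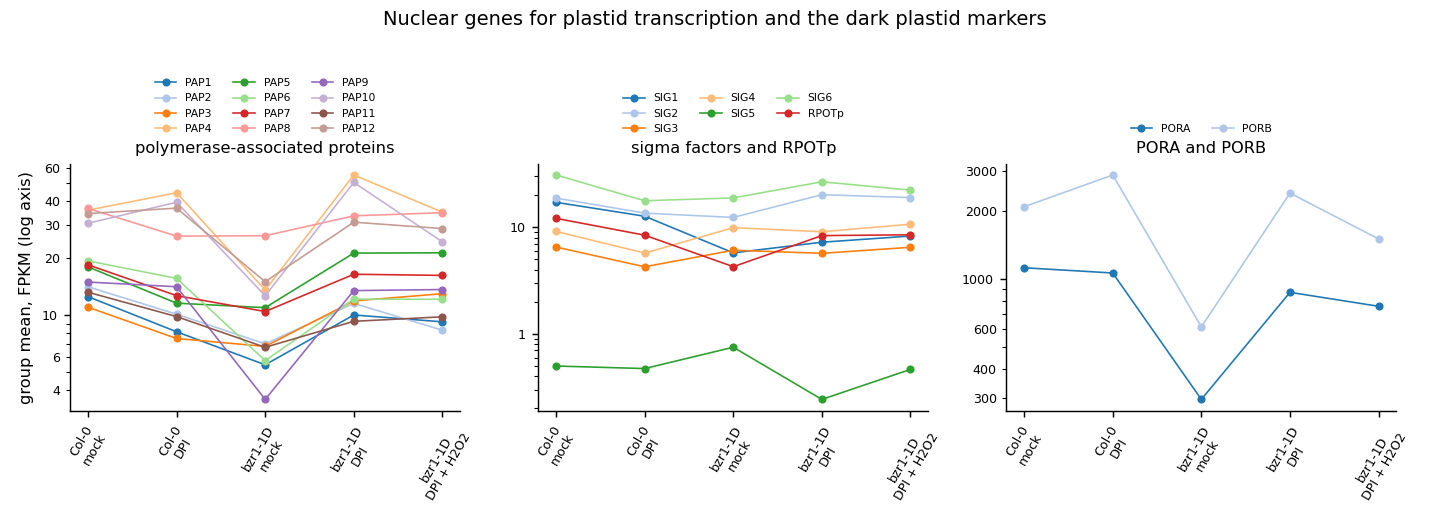
Group means in FPKM (vertical log axes) of the polymerase-associated proteins, of the sigma factors with RPOTp, and of PORA and PORB in the 5 groups, with 1 line per gene. Most lines of the first panel and both lines of the third are lowest in bzr1-1D mock, where PAP9 is 3.59 FPKM and PORA is 295 FPKM.

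Both markers of etioplasts in dark-grown seedlings were lowest in bzr1-1D mock, as were most members. PORA was 1121 FPKM in mock and 1063 FPKM with DPI in Col-0, and 295 FPKM in mock, 873 FPKM with DPI and 758 FPKM with both DPI and H2O2 in bzr1-1D. PORB was 2080, 2871, 615, 2389 and 1501 FPKM in the same order. In other comparisons they differed from the members. Under DPI both were within the fold between the genotypes (log2 ratios -0.28 for PORA and -0.26 for PORB, member median -0.63). With H2O2 added to DPI, PORB was lower (log2 ratio -0.67, member median -0.19) and PORA was within the fold (-0.20). The tissue is given as hypocotyl, and the root hair markers EXPA7, COBL9 and PRP3 were read in all 5 groups. Their means lay above the value that replaces zeros. EXPA7 (0.18 to 3.68 FPKM over the groups) and COBL9 (0.63 to 1.74 FPKM) were low, and PRP3 lay between 9.76 and 69.3 FPKM. The summed level of these markers, most of it from PRP3, was 18.5 FPKM in mock and 74.7 FPKM with DPI in Col-0. In bzr1-1D this sum was 32.0 FPKM in mock, 10.6 FPKM with DPI and 16.3 FPKM with both DPI and H2O2. Whether the samples held root tissue was not tested. The part of tissue make-up, of plastid type and of the number of libraries behind a mean in the ratios of the members was not tested.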

How the data were processed

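RNA from dark-grown seedlings was sequenced on the BGISEQ-500 platform. The submitters' processing notes name HISAT and Bowtie2 and the TAIR10 genome, and the versions are not given in the sources used here. The deposited values are the authors' group means, in a unit taken here as FPKM, with zeros set to 0.01. The deposited gene length was used for the length-weighted share. The 6 complete tables were used, and a table cut off in its last row was left out. Their columns of log2 ratios, directions and NOISeq probabilities hold the authors' own comparisons and were not used. The tables head the bzr1-1D means with another abbreviation (ERD), and these were assigned by the pair of groups for which each table is named. Means of a group differed between tables by at most 3.33e-07 FPKM.

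Log2 ratios of the means were computed without a pseudocount for genes with a mean over both groups of at least 1 FPKM (Python 3.11.15, pandas 2.3.3), and the counting step was tested on simulated data. Since only group means were used, there is no SD, n, depth or test. The members and lists were chosen with earlier results of these data known. Named genes are, in each comparison, the 3 highest and 3 lowest ratios among members with a mean of at least 10 FPKM, a set of members that stand for each role, and the nuclear lists. Members that complete a count, a transcription unit or a list of lower genes were named after their values were seen. Of the 88 members, 81 have the same start, end and strand in RefSeq TAIR10.1, from which sequences were read. Values of some members are not reported here singly, and their upstream windows were not searched. Alternatives were a 2-fold threshold, no minimum, pseudocounts of 1 and 0.1, centring, scaling to nuclear genes, 1 identifier per repeat gene and leaving out members below 300 bases.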

Additional observations from a re-analysis of the deposited data

How the results depend on the processing

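No paired analysis was possible because the tables hold group means, and leaving out a replicate was not possible for the same reason. In all 6 comparisons the majority of members past the fold kept its direction under each of the 8 alternatives. For bzr1-1D against Col-0 in mock the count stayed within 1.5 times of 74 members under all 8. At a 2-fold threshold the members past the fold numbered 17 for bzr1-1D against Col-0 under DPI (48 at 1.5-fold), 1 for DPI in Col-0 (8 at 1.5-fold), 36 for DPI in bzr1-1D (60), 7 for H2O2 added to DPI (13) and 31 for DPI plus H2O2 against mock (58). Centring on the median gene gave 18 members for DPI in Col-0, all higher, and 36 for H2O2 added to DPI, all lower. A pseudocount of 1 FPKM gave 3 for DPI in Col-0. With members below 300 bases left out, the counts were 30, 1, 3 and 36 for bzr1-1D against Col-0 under DPI, DPI in Col-0, H2O2 added to DPI, and DPI plus H2O2 against mock, over fewer genes by construction.

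The plastid share of the summed means, in the order of Col-0 in mock and with DPI, then bzr1-1D in mock, with DPI and with DPI plus H2O2, was 0.533%, 0.541%, 0.269%, 0.38% and 0.304% when weighted by gene length, 1.67%, 1.77%, 0.895%, 1.17% and 0.798% without the 10 most abundant nuclear genes of each group, 1.41%, 1.41%, 0.755%, 0.949% and 0.674% with 1 identifier per repeat gene and 1.19%, 1.12%, 0.633%, 0.793% and 0.636% without psbM, an alternative chosen after seeing the data. Depth is unknown, so how far it limits the low members cannot be given.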
